A study of Mus musculus with 6 samples.

Results

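The stefin A genes Stfa1, Stfa2, Stfa3, BC100530 and Gm5483 were followed in 6 single-cell RNA libraries, 5 genes of the 31053 in the files. These 5 were chosen by measured values of these data: they led a granulocytic cell state of vitamin D3 stimulated cultures, so their rise in that library is a description and was not tested. Stefin A proteins are small intracellular inhibitors of papain-like cysteine proteases, the cysteine cathepsins. The mouse carries a cluster of near-copies of the gene, and the family is best known from neutrophils and their precursors and from stratified epithelium such as the epidermis. Neutrophils mature in steps, first filling primary granules (Mpo, Elane), then secondary granules (Ltf, Camp, Ngp), and at last gaining receptors such as Cxcr2.

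The study cultured bone marrow-derived dendritic cells (DCs) of C57BL/6J mice with GM-CSF, a mixture that also holds granulocytes and macrophages, and used the cells in suspension. Untreated DCs received no further agent, VD3 stimulated DCs received 1,25-dihydroxyvitamin D3 (VD3) at 1e-06 M on day 7 for 24 h, and Ndrg2-KO DCs were electroporated with Cas9 and a mix of guides to Ndrg2, a step that the untreated DCs did not undergo. The other 3 libraries came from splinted full-thickness excisional wounds of mice aged 6 weeks at surgery, whose strain the labels do not give. The wounds carried pullulan-collagen hydrogels with control DCs (control DC wounds), with Ndrg2-KO DCs (Ndrg2-KO DC wounds) or with no cells (blank hydrogel wounds), and tissue of 5 mice per group was explanted on day 10. The study tied day 10 to the healing curves of its wild-type mice, but it also wounded diabetic db/db mice. The labels call the control DCs untreated, while the study's text describes nucleofection with non-targeting guides. Each condition was 1 library, so no difference between conditions has a replicate check and none was tested. All intervals are 95% intervals of counting error only.

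The libraries held 7257 untreated, 8825 VD3 stimulated and 7969 Ndrg2-KO DCs after filtering, and 1948, 5681 and 3403 cells of control DC, Ndrg2-KO DC and blank hydrogel wounds. Kept cells carried between 29675507 and 143627482 unique molecular identifiers (UMIs, each 1 captured RNA molecule) per library, and any pair of libraries shared 2 to 25 barcodes. Cyp24a1, the enzyme that breaks down active vitamin D, had 36662 UMIs in the VD3 stimulated DCs and 1 in the untreated DCs. Ndrg2 had 613 UMIs in untreated DCs, 165 with VD3 and 127 after the knockout, and 181, 164 and 115 UMIs in control DC, Ndrg2-KO DC and blank hydrogel wounds. Since the 3′ tags may lie outside the edited part of the gene, this count does not check the knockout.

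All 5 genes are protein coding and lie together on chromosome 16 of GRCm38, between 36184212 and 36455392, a span of 271 kb. In order along the chromosome they are Gm5483 (ENSMUSG00000079597, 36184212 to 36188111, plus strand), Stfa1 (ENSMUSG00000071562, 36276951 to 36285373, plus strand), BC100530 (ENSMUSG00000071561, 36359382 to 36367748, minus strand), Stfa2 (ENSMUSG00000022902, 36403992 to 36408457, minus strand) and Stfa3 (ENSMUSG00000054905, 36450537 to 36455392, minus strand). BC100530 overlaps Gm15845, an antisense gene on the plus strand (36367070 to 36387406). The same span holds 8 protein-coding genes in all, and Stfa2l1, a further stefin A gene, lies just outside it at 36156811 to 36161953. Because the genes are near-copies, reads could be split between them. Of all 90-base windows in the last 500 bases of the annotated transcripts, 100% were found in no other gene for Stfa3, 97.9% for Stfa2, 92.2% for Stfa1, 92.0% for Gm5483 and 85.8% for BC100530. The windows that were shared paired Stfa1 and BC117090 with BC100530, Stfa2 with Stfa2l1, and Gm5483 with 2010005H15Rik. The values of Stfa1, Stfa2, BC100530 and Gm5483 are uncertain to that extent.

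The promoters are shown because the genes moved together in the DC cultures. RefSeq promoters (GRCm38.p6, 250 bases before to 50 after the start, 300 bases each, read along the gene) were matched for 3 of the 5 genes, and BC100530 and Gm5483 had no entry. They cover chr16:36276898-36277197 (plus strand) for Stfa1, chr16:36408314-36408613 (minus strand) for Stfa2 and chr16:36455343-36455642 (minus strand) for Stfa3. Capitals mark every run of 10 or more bases that all 3 promoters hold.
Stfa1: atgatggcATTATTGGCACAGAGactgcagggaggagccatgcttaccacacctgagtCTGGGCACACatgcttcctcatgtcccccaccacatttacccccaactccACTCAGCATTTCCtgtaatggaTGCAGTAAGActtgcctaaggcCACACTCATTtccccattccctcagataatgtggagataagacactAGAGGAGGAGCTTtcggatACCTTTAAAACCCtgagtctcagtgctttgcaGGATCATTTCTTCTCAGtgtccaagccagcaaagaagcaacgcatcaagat
Stfa2: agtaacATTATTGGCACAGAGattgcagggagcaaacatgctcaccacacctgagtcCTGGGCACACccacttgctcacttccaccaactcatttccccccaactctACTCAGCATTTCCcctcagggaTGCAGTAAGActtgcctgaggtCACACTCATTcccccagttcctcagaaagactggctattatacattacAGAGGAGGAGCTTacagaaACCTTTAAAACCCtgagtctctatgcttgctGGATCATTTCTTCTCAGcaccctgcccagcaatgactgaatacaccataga
Stfa3: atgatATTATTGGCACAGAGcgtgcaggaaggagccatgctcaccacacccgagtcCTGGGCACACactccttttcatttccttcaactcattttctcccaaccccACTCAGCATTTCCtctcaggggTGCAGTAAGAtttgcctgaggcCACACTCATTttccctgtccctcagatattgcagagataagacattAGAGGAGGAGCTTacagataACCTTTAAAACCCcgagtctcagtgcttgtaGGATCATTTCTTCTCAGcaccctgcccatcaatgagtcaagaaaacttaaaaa
The runs in capitals cover 101 of the 300 bases. Aligned over their whole length, Stfa1 and Stfa2 were identical at 79.3% of positions, Stfa1 and Stfa3 at 81.0%, and Stfa2 and Stfa3 at 81.0%. Stfa2 was nearer to Stfa2l1, at 90.5%. The letters TTTAAAA, looked for after the promoters had been seen, stood in the gene's own direction with their first base at -30 in Stfa1, -29 in Stfa2 and -31 in Stfa3, inside one of the shared runs. On either strand they occurred in 8.74% of the 32851 promoters of the same length. TTNNGNAAT, GAGGAAGT, TATAAA and the DR3 type of vitamin D response element were searched on both strands and matched none of the 3 windows, against 11.5%, 3.20%, 13.6% and 0.256% of all promoters.

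In the DC cultures every gene of the 5 had its highest level with VD3 and its lowest in Ndrg2-KO DCs. Levels are given as UMIs of the gene per 1000000 UMIs (CPM), and since 1 tag is counted per molecule whatever the transcript's length, they were not divided by length. Stfa1 stood at 32.4 CPM (interval 31.5 to 33.4) in untreated DCs, 77.9 (76.3 to 79.5) with VD3 and 0.181 (0.118 to 0.265) in Ndrg2-KO DCs. BC100530 stood at 36.7, 87.7 and 5.90 CPM in the same order. Gm5483 stood at 186, 274 and 30.5 CPM. None of these intervals overlap between the 3 cultures.
Stfa2 stood at 9.90, 25.5 and 0.703 CPM, and Stfa3 at 5.28, 6.75 and 1.64 CPM. Stfa3 thus differed least between untreated and VD3 stimulated DCs at this filter on cells, although its intervals (4.90 to 5.69 and 6.29 to 7.24 CPM) were apart.

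**Figure D1:**
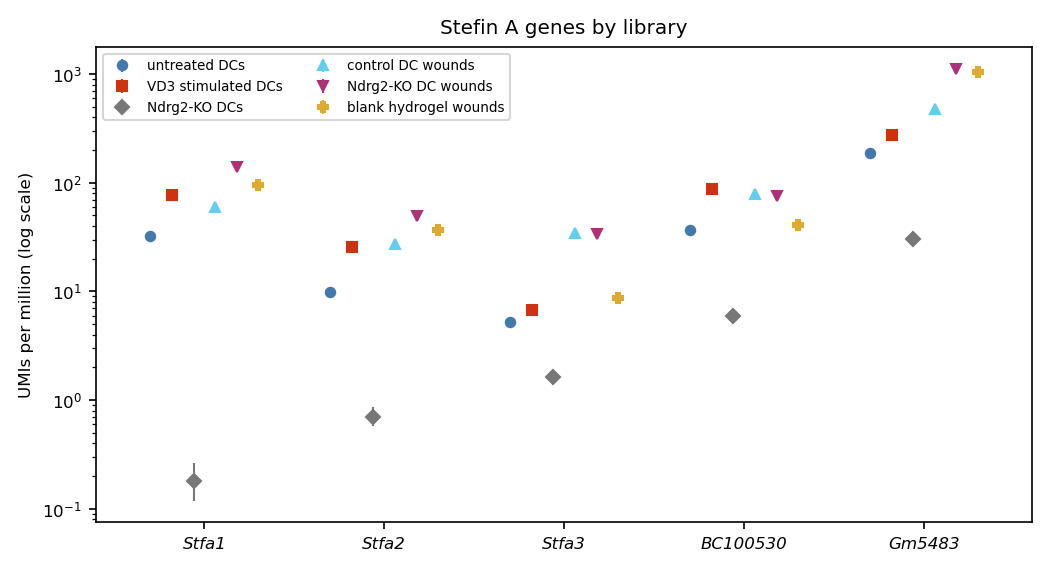
CPM (log scale) of the 5 stefin A genes in each of the 6 libraries, with bars for the 95% Poisson interval of the count, often smaller than the symbol. Ndrg2-KO DCs are lowest for every gene, with Stfa1 at 0.181 CPM, and Gm5483 reaches 1114 CPM in Ndrg2-KO DC wounds.

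The difference of VD3 stimulated from untreated DCs on the log2 scale was 1.26 (interval 1.21 to 1.32) for Stfa1, 1.36 (1.27 to 1.46) for Stfa2, 1.26 (1.21 to 1.31) for BC100530, 0.56 (0.53 to 0.58) for Gm5483 and 0.35 (0.21 to 0.50) for Stfa3. A 2-fold or larger excess was seen for 3 of the 5, and for 3.55% of the 11716 genes with at least 100 UMIs in either library, while 6.47% were 2-fold or more lower. With a limit of 5% mitochondrial UMIs per cell all 5 passed, with Stfa2 at 2.34, Stfa3 at 1.25 and Gm5483 at 1.16, and as a mean over cells 2 did, with BC100530 at 0.98. Because the genes were chosen in this contrast, nothing is read from that count. Their median difference was 1.26, against -0.08 over all genes.
In Ndrg2-KO against untreated DCs all 5 genes were 2-fold or more lower, as were 7.67% of 11980 genes, with 9.1% higher. The difference was -7.48 for Stfa1, -3.82 for Stfa2, -2.64 for BC100530, -2.61 for Gm5483 and -1.68 for Stfa3. With a limit of 5% mitochondrial UMIs per cell Stfa3 stood at -0.61, so that 4 of the 5 passed. Against VD3 stimulated DCs all 5 were again 2-fold or more lower, from -8.75 for Stfa1 to -2.04 for Stfa3, as were 7.79% of 11975 genes, with 12.2% higher. These comparisons share libraries. Because the genes were chosen for their level with VD3, nothing is read from the count against VD3 stimulated DCs. In bulk sums such as these, fewer cells of a type and less RNA per cell cannot be told apart, and lists of granulocyte genes moved with the stefin A genes only in part. After the knockout all 6 primary granule genes and 4 of 6 secondary granule genes were 2-fold or more lower, while of the 6 late-list genes 3 were higher and 2 lower, with a median of 0.15, and of 5 measured inflammatory neutrophil genes (from Ccl3, Ccl4, Cxcl2, Ptgs2, Ccrl2 and Il1a, which macrophages and DCs can also express) 2 were higher and 1 lower, with a median of 0.72. With VD3, where the stefin A genes stood higher, 4 of 6 inflammatory neutrophil genes were 2-fold or more higher and 1 lower (median 1.40), and 1 of 5 measured late-list genes was higher and none lower (median 0.71). The primary list went the other way, with 5 of 6 genes 2-fold or more lower (median -1.10), and of the secondary list 0 of 6 passed 2-fold (median 0.13). Elane, a protease of primary granules, had 30.0 CPM in untreated, 12.3 in VD3 stimulated and 0.111 in Ndrg2-KO DCs. The part of these genes' cells in the stefin difference was not tested at this level.

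The stefins' targets and the relative Cstb differed from the 5 genes, while the relative Stfa2l1 went the same way. Of the 10 cysteine cathepsins, 9 were measured in the VD3 comparison. There none was 2-fold or more higher and 2 were lower, beside 3.55% and 6.47% of 11716 genes. Ctsc, which activates granule serine proteases, stood at -1.33 on the log2 scale, and Ctsk, best known from bone resorption, stood at -2.67. In Ndrg2-KO against untreated DCs 5 of 9 cathepsins were 2-fold or more higher and none lower, beside 9.1% and 7.67% of 11980 genes. The median of the 9 was 1.54. In untreated DCs Ctsl had 186 CPM, against 1579 CPM after the knockout, and Ctsb had 479 and 1922 CPM. Cstb, which encodes stefin B, the widely expressed relative, stood at 1038 CPM in untreated, 599 in VD3 stimulated and 1937 in Ndrg2-KO DCs. It was therefore highest in the library where the stefin A genes were lowest. Among the other stefin A genes Stfa2l1 had the most UMIs, and its log2 difference was 0.67 with VD3 and -4.04 in Ndrg2-KO DCs.

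The 5 genes differed in how many cells carried them. Gm5483 UMIs were found in 1706 untreated, 1518 VD3 stimulated and 1002 Ndrg2-KO DCs, whereas Stfa1 UMIs were found in 161, 237 and 15 cells. The 73 cells with the most, 1% of untreated DCs, held 97.7% of Stfa1, 98.8% of BC100530 and 96.2% of Stfa2 UMIs but 45.4% of Gm5483 UMIs. The corresponding 89 VD3 stimulated DCs held 97.0%, 97.7%, 97.2% and 51.0%. Single cells could carry a large part of the total. The highest untreated cell held 1824 stefin UMIs, 7.41% of its own 24630 UMIs and 5.08% of all stefin UMIs of that library. The highest Stfa1 count of an untreated cell, 841 UMIs, was 19.6% of that library's Stfa1 UMIs. The highest VD3 stimulated cell held 1507. Stefin UMIs made up 1% or more of 46 untreated, 146 VD3 stimulated and 9 Ndrg2-KO DCs.

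The genes were found together more often than their shares of all cells. They were chosen as joint leaders of a cell state with VD3, so this is a description. With VD3, 46.4% of cells with Stfa1 also had BC100530, which was found in 2.47% of all cells. Likewise 51.9% of cells with Stfa2 had Stfa1, against 2.69% of all cells. In untreated DCs the first of these shares was 28.6%. Gm5483 behaved as the broader member, since 76.0% of the VD3 stimulated cells with Stfa1 had it while 11.9% of the cells with Gm5483 had Stfa1. These shares are at full depth and deep cells show more genes. To compare shares across libraries, each cell was reduced at random to 2000 UMIs in the cultures and 1000 in the wounds.
At that depth 10.99% of 6785 untreated, 9.97% of 7676 VD3 stimulated and 3.79% of 7835 Ndrg2-KO DCs had a stefin UMI, with 472, 1149 and 134 shallower cells left out. The untreated and VD3 stimulated shares had overlapping intervals (10.3 to 11.8% and 9.30 to 10.7%). In mature DC-like cells, which should lack these genes, the shares were 1.33%, 1.39% and 0.529% at median depths of 14361, 13360 and 10696.5 UMIs before reduction, against library medians of 15804, 12089 and 16316. Every library's share was therefore above its background. For Stfa1 alone the share was 0.914% (0.701 to 1.17%) in untreated, 1.43% (1.18 to 1.72%) in VD3 stimulated and 0.0893% (0.0359 to 0.184%) in Ndrg2-KO DCs. Without the reduction, 25.7%, 19.2% and 13.5% of cells had a stefin UMI.

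Cells were then assigned to a neutrophil stage where they had at least 3 of 6 genes of the primary granule, secondary granule or late list. The primary list placed 186 untreated, 148 VD3 stimulated and 0 Ndrg2-KO DCs, the secondary list 75, 114 and 8, and the late list 374, 553 and 341. A further 28, 40 and 4 cells tied between lists. The late label needs care in the cultures. S100a8, an abundant cytosolic protein of neutrophils, had 67285 CPM in secondary-stage and 6062 CPM in late-stage untreated DCs, and 1396 CPM in late-stage Ndrg2-KO DCs, while late-stage cells of the wounds had 31307 to 39798 CPM. Ccr7, a marker of mature DCs, had 330 CPM in late-stage VD3 stimulated DCs. The late list in the cultures therefore held other cells too, and of its cells 266 of 374, 404 of 553 and 297 of 341 met the minimum of 3 genes and no more.

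Of the 3 stages, all 5 genes were highest at the secondary granule stage in untreated and in VD3 stimulated DCs. There the Stfa1 level of untreated DCs was 695 CPM (650 to 742), and that with VD3 was 2198 CPM (2127 to 2271). BC100530 had 1677 and 3799 CPM, Gm5483 had 2590 and 5699 CPM, Stfa2 had 480 and 1254 CPM, and Stfa3 had 211 and 307 CPM. All 5 were higher with VD3. Of the 893 Stfa1 UMIs of the untreated cells 504 lay in 1 cell, and of the 3627 with VD3 669 did. Leaving out the top Stfa1 cell of each gave 311 and 1812 CPM, and a log2 difference of 2.54 in place of 1.66. The log2 differences were 1.66 (1.55 to 1.77) for Stfa1, 1.38 for Stfa2, 1.18 for BC100530, 1.14 for Gm5483 and 0.54 for Stfa3, and 4 of 5 were 2-fold or more higher, beside 3.1% of 2066 genes, with 3.24% lower. These cells belong to the libraries in which the genes were chosen, so the values are a description. The secondary list itself had a median of 0.49, with none of its 5 measured genes past 2-fold, and S100a8 and S100a9 had a median of 0.15. Of the inflammatory neutrophil genes both that were measured were 2-fold or more higher in the same cells, with a median of 2.22. With stages called at 1000 UMIs per cell, the summed difference of 1.23 became 0.68. Stfa1 UMIs were found in 20 of 75 untreated (26.7%) and 62 of 114 VD3 stimulated cells (54.4%), and the median cell held 16 and 116.5 stefin UMIs. The 75 untreated cells held 20.2% of that library's stefin UMIs in 0.969% of its UMIs, and the 114 VD3 stimulated cells held 39.8% in 1.42%. The 8 Ndrg2-KO cells of this stage had 4.85 CPM of Stfa1 (interval 0.123 to 27.0), which is 1 UMI, but 1184 CPM of BC100530 (1040 to 1342) and 757 CPM of Gm5483. Stfa1 and BC100530 were thus far apart in these few cells, where 136 of 244 BC100530 UMIs came from 1 cell.

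At the primary granule stage Stfa2 and Stfa3 were the lowest of the 5 genes. Stfa1 had 135 CPM without and 611 CPM with VD3, BC100530 had 47.5 and 439 CPM, and Gm5483 had 301 and 728 CPM. Stfa2 had 3.87 and 15.2 CPM with 21 and 51 UMIs, and Stfa3 had 2.03 and 1.49 CPM with 11 and 5 UMIs. The 3 genes with at least 100 UMIs were all 2-fold or more higher with VD3, beside 3.24% of 5685 genes, with 5.19% lower. Their log2 differences were 2.17 for Stfa1, 3.21 for BC100530 and 1.27 for Gm5483. A few cells carried these values: Stfa1 UMIs were found in 34 of 186 untreated and 31 of 148 VD3 stimulated cells, with up to 112 and 490 UMIs in a cell. Of 4 measured inflammatory neutrophil genes 3 were also 2-fold or more higher and 1 lower, with a median of 3.54. For the 5 genes summed the difference of 1.87 became 0.89 when stages were called at 1000 UMIs per cell. The tied cells, 28 untreated and 40 VD3 stimulated, held 15.3% and 11.4% of the stefin UMIs, and there not all genes were higher with VD3. Stfa1 had 2158 and 2208 CPM and Gm5483 had 1891 and 2977 CPM, while Stfa2 had 365 and 216 CPM, Stfa3 had 254 and 94.2 CPM, and BC100530 had 2193 and 1788 CPM. The 28 untreated cells held 40.1% of that library's Stfa1 and 36.0% of its BC100530 UMIs, and 1 of them held 841 of the 1724 Stfa1 UMIs.

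At the late stage the directions parted. Stfa1 had 19.2 CPM without and 45.1 CPM with VD3, and Stfa2 had 16.9 and 55.9 CPM. BC100530 went the other way, with 44.3 and 3.18 CPM, a log2 difference of -3.80 (-4.46 to -3.20). Gm5483 had 483 and 515 CPM. The summed difference of 0.13 became 0.91 when stages were called at 1000 UMIs per cell. Of the 4 measured genes 2 were 2-fold or more higher and 1 lower, beside 2.65% and 4.11% of 7369 genes. The BC100530 counts came from few cells, 14 untreated with 362 UMIs, 143 of them in 1 cell, and 11 VD3 stimulated with 24 UMIs. Limited to late-stage cells of the neutrophil-like cluster, where S100a8 had 30428 and 32592 CPM, BC100530 had 192 CPM in the 199 cells without and 14.3 CPM in the 331 cells with VD3, and Stfa1 had 28.9 and 136 CPM.

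**Figure D2:**
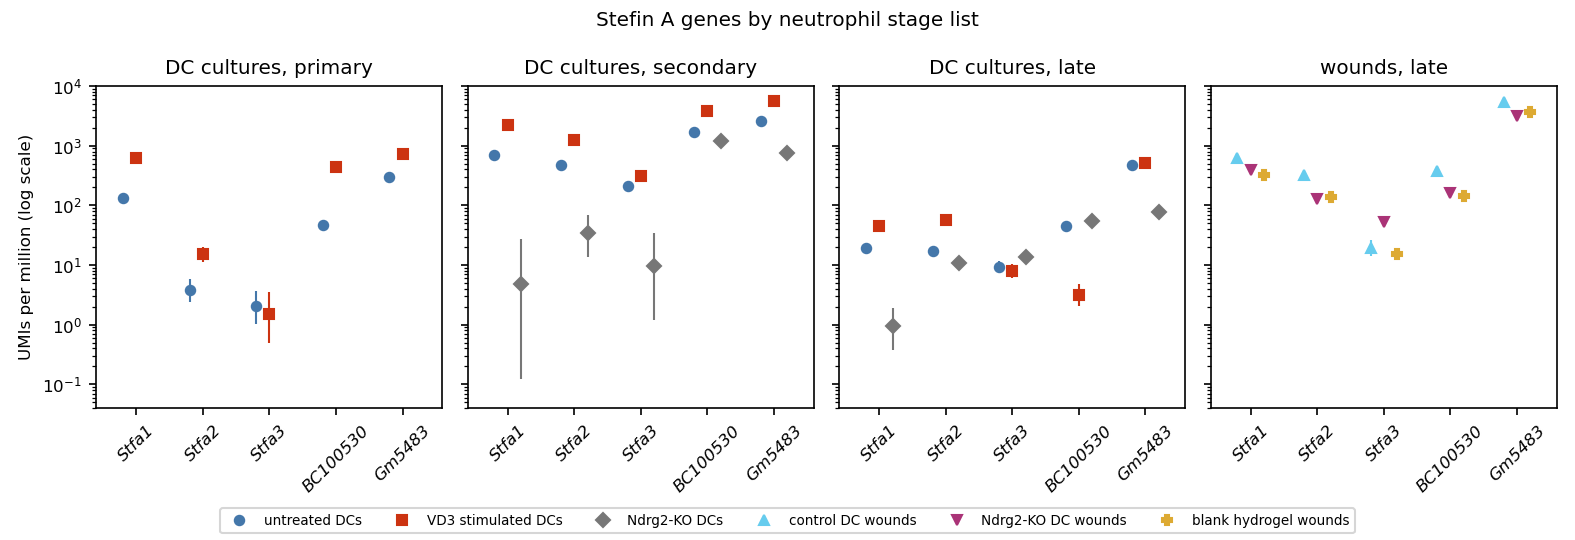
CPM (log scale) of the 5 genes in cells of each stage list, for the DC cultures at the primary, secondary and late stage and for the wounds at the late stage, with bars for 95% Poisson intervals. VD3 stimulated DCs lie above untreated DCs for every gene at the secondary stage, and below them for BC100530 at the late stage, at 3.18 against 44.3 CPM.

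Clustering with all stefin A genes left out of the variable genes gave 16 clusters of DCs and 13 of wound cells. One culture cluster was neutrophil-like, led by Csf3r, Ltf and Ngp, and held 924 untreated, 1107 VD3 stimulated and 27 Ndrg2-KO DCs. It held 22.5%, 29.3% and 2.49% of the stefin UMIs of those libraries. Stfa1 had 50.8 CPM in its untreated and 415 CPM in its VD3 stimulated cells. A second cluster, number 8, was led by Elane, Prtn3, Camp, Mpo and Ctsg, held markers of several classes and was left unnamed. Of its cells 98 were untreated, 1080 came from the VD3 culture and 7 from the knockout, and it carried 66.8% of untreated and 77.0% of VD3 stimulated Stfa1 UMIs. Within it the direction was the opposite, with Stfa1 at 1066 CPM without and 256 CPM with VD3 and BC100530 at 1020 and 236 CPM. Of the untreated cells there 35.7% had a Stfa1 UMI, against 9.35% of the VD3 stimulated cells. S100a8 had 43552 and 8463 CPM in the same cells, the same direction as the stefin level. Whether the cluster's make-up differed between the libraries, and its part in the difference, was not tested.

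Outside these clusters the 5 genes went separate ways. Gm5483 was spread through a proliferating-like cluster of untreated DCs, whose 1706 cells held 51.6% of its UMIs at 231 CPM while Stfa1 there had 19.4 CPM, and through a macrophage-like cluster of 1457 VD3 stimulated DCs at 210 CPM. At 2000 UMIs per cell 11.7% of the macrophage-like VD3 stimulated DCs had a stefin UMI, above the 1.39% of mature DC-like cells. For each 100 Gm5483 UMIs there were 8.39 Stfa1 UMIs in the proliferating-like and 4.20 in the neutrophil-like untreated cells, but 2.41 in the macrophage-like and 19.4 in the neutrophil-like VD3 stimulated cells. Stfa2 was the highest of the 5 in untreated cDC1-like cells, the cross-presenting DCs led here by Itgae. In the 77 untreated cells of that cluster it had 120 UMIs in 23 cells, 110 CPM (91.1 to 131), and Gm5483 had 34 UMIs in 13 cells, 31.1 CPM. The 141 VD3 stimulated cDC1-like cells had a summed stefin level of 25.7 CPM, against 144 CPM in the untreated ones. BC100530 had 64.8 CPM in a cluster of 481 Ndrg2-KO DCs led by Mmp9 and Chil1, which held 34.4% of that library's BC100530 UMIs. No stefin UMI was found in the 56 untreated basophil-like cells, with an upper limit of 6.27 CPM at their summed depth. The mature DC-like cells of all 3 cultures had 4.32 to 10.9 CPM of the 5 genes together.

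**Figure D3:**
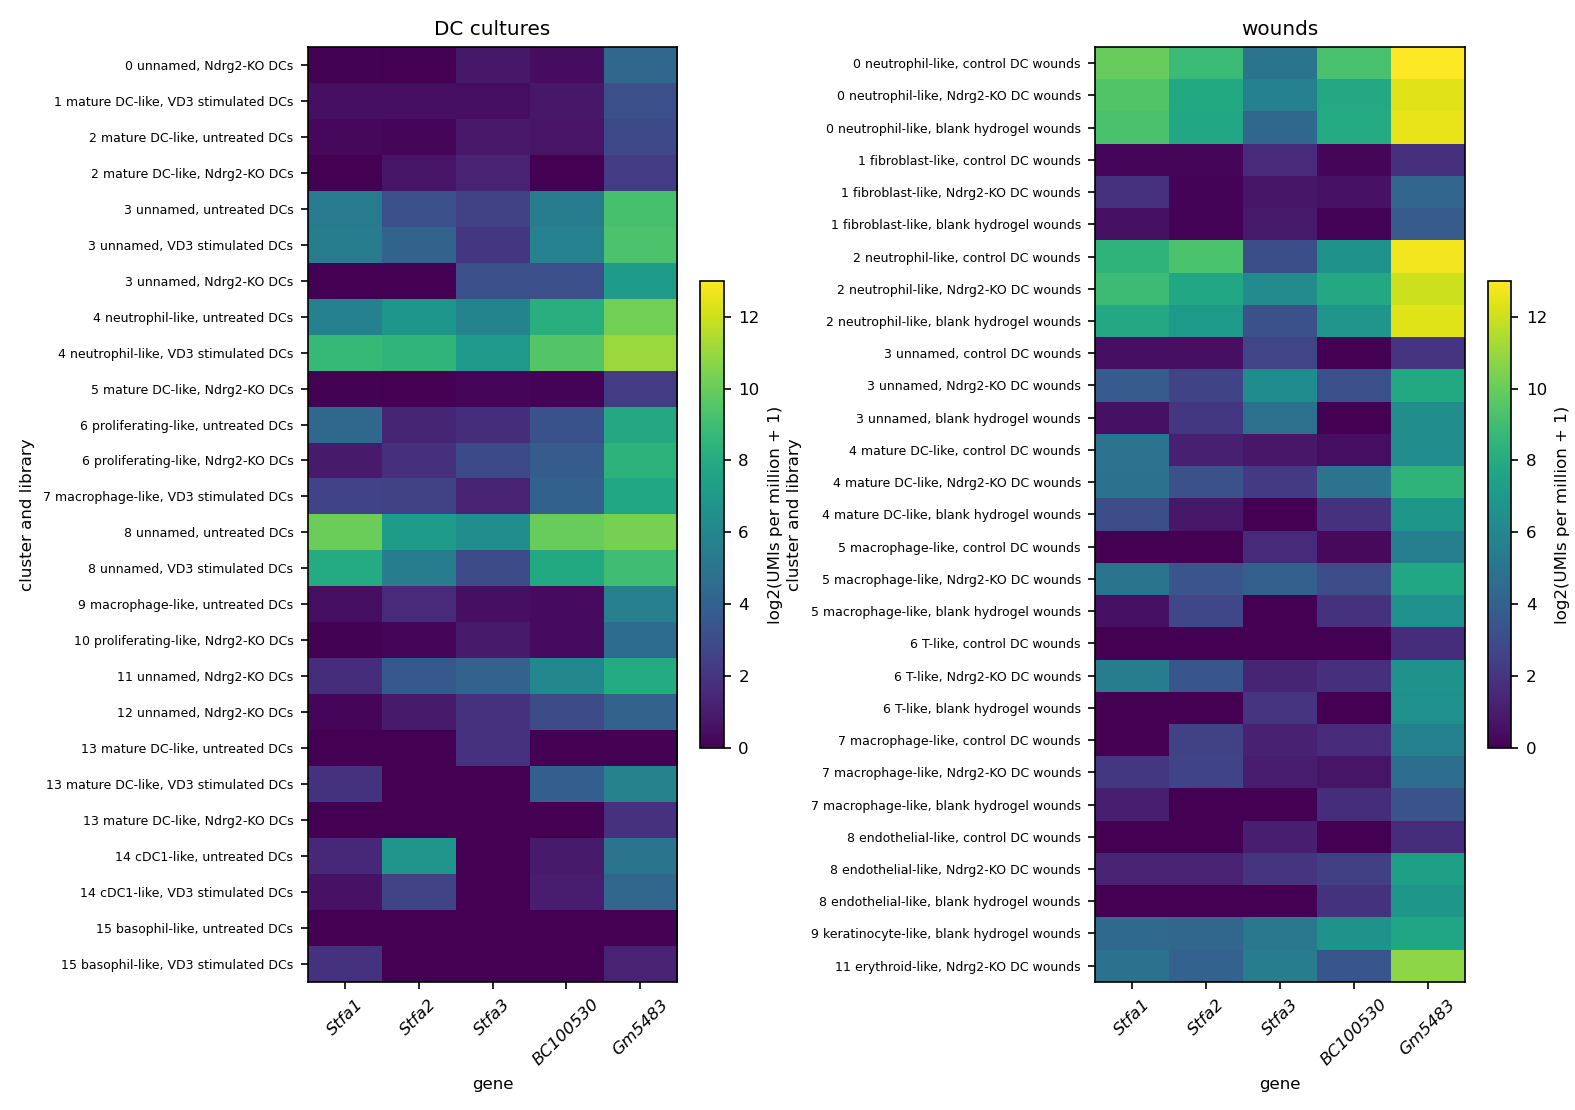
Level of each stefin A gene as log2(CPM + 1) in every cluster of a library with at least 50 cells, cultures on the left and wounds on the right. The brightest rows over all 5 genes are the neutrophil-like clusters and, in the cultures, cluster 8, and Stfa2 is the highest of the 5 in untreated cDC1-like cells, at 110 CPM beside 31.1 CPM of Gm5483.

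In the wounds most of the summed stefin UMIs lay in 2 neutrophil-like clusters, with 81.5% in control DC, 86.0% in Ndrg2-KO DC and 93.4% in blank hydrogel wounds. Gm5483 carried this sum, with 70.3%, 78.9% and 85.2% of the stefin UMIs. The same clusters held 4.38%, 36.4% and 33.0% of Stfa3 UMIs and 37.6%, 60.8% and 91.2% of BC100530 UMIs. The primary and secondary lists placed 0 cells in these libraries, and the late list placed 415, 2273 and 1311 cells, 21.3%, 40.0% and 38.5% of all cells, with 2 ties in Ndrg2-KO DC wounds. In the whole libraries Gm5483 had 476, 1114 and 1049 CPM in control DC, Ndrg2-KO DC and blank hydrogel wounds. Stfa1 had 60.5, 139 and 95.4 CPM, and Stfa2 had 27.5, 49.8 and 37.1 CPM. These 3 genes were lowest in control DC wounds. Stfa3 had 34.6, 33.5 and 8.68 CPM, and BC100530 had 78.4, 75.4 and 40.5 CPM, both lowest in blank hydrogel wounds.

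For Ndrg2-KO DC against control DC wounds the log2 differences were 1.21 for Stfa1, 0.86 for Stfa2, -0.05 (-0.16 to 0.06) for Stfa3, -0.06 (-0.13 to 0.02) for BC100530 and 1.23 for Gm5483. For Stfa3 and BC100530 the interval held 0, and the sign rested on single cells: 1 cell of control DC wounds held 39.3% of that library's Stfa3 and 32.4% of its BC100530 UMIs, and without the top stefin cell of each library the values were 0.55 and 0.24. Of the 5 genes 2 were 2-fold or more higher, beside 3.98% of 11236 genes, and none lower, beside 4.67%. As a mean over cells none was 2-fold or more higher, with Stfa1 at 0.71 and Gm5483 at 0.50. Blank hydrogel wounds, compared with the same control DC wounds, differed by 0.66 for Stfa1 and 0.43 for Stfa2. Gm5483 was 2-fold or more higher (1.14), Stfa3 was 2-fold or more lower at -2.0 and nearly so was BC100530 at -0.95, beside 3.12% of 10826 genes higher and 2.99% lower. As a mean over cells neither passed 2-fold, with Gm5483 at 0.53 and Stfa3 at -0.96. Without the top stefin cell of each library Stfa3 stood at -1.28 and BC100530 at -0.40. Without Gm5483 the summed difference of 0.86 became -0.15. Neutrophil genes moved with the first group of differences: S100a8 and S100a9 had a median difference of 1.69 in Ndrg2-KO DC and 1.34 in blank hydrogel wounds, and 6 of 6 and 4 of 6 late-list genes were 2-fold or more higher.

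Within late-stage cells control DC wounds were highest for 4 of the 5 genes, whereas over whole libraries they had been lowest for Stfa1, Stfa2 and Gm5483. Gm5483 had 5407 CPM (5313 to 5502) in control DC, 3197 CPM in Ndrg2-KO DC and 3658 CPM in blank hydrogel wounds. Stfa1 had 613, 391 and 329 CPM, Stfa2 had 322, 128 and 139 CPM, and BC100530 had 374, 159 and 142 CPM. The exception was Stfa3, which had 19.6, 53.1 and 15.1 CPM and was highest in Ndrg2-KO DC wounds. The log2 difference of Ndrg2-KO DC from control DC wounds was -0.65 for Stfa1, -1.33 for Stfa2, 1.44 for Stfa3, -1.23 for BC100530 and -0.76 for Gm5483, so that 1 gene was 2-fold or more higher and 2 lower, beside 4.66% and 1.1% of 6613 genes. For blank hydrogel against control DC wounds none was higher and 2 were lower, beside 4.6% and 0.813% of 5778 genes. This order depended on the stage rule: with 2 genes of a list in place of 3, the summed difference of -0.78 became 0.08 for Ndrg2-KO DC wounds, and that of -0.65 became 0.01 for blank hydrogel wounds. S100a8 was also highest in late-stage cells of control DC wounds, at 39798 CPM against 33702 and 31307 CPM, and its part was not tested. In late-stage cells of the neutrophil-like clusters alone, the 5 genes together had 10925, 6443 and 7312 CPM in control DC, Ndrg2-KO DC and blank hydrogel wounds. The share of late-stage cells with any stefin UMI was 58.6%, 64.3% and 59.5% at full depth.

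**Figure D4:**
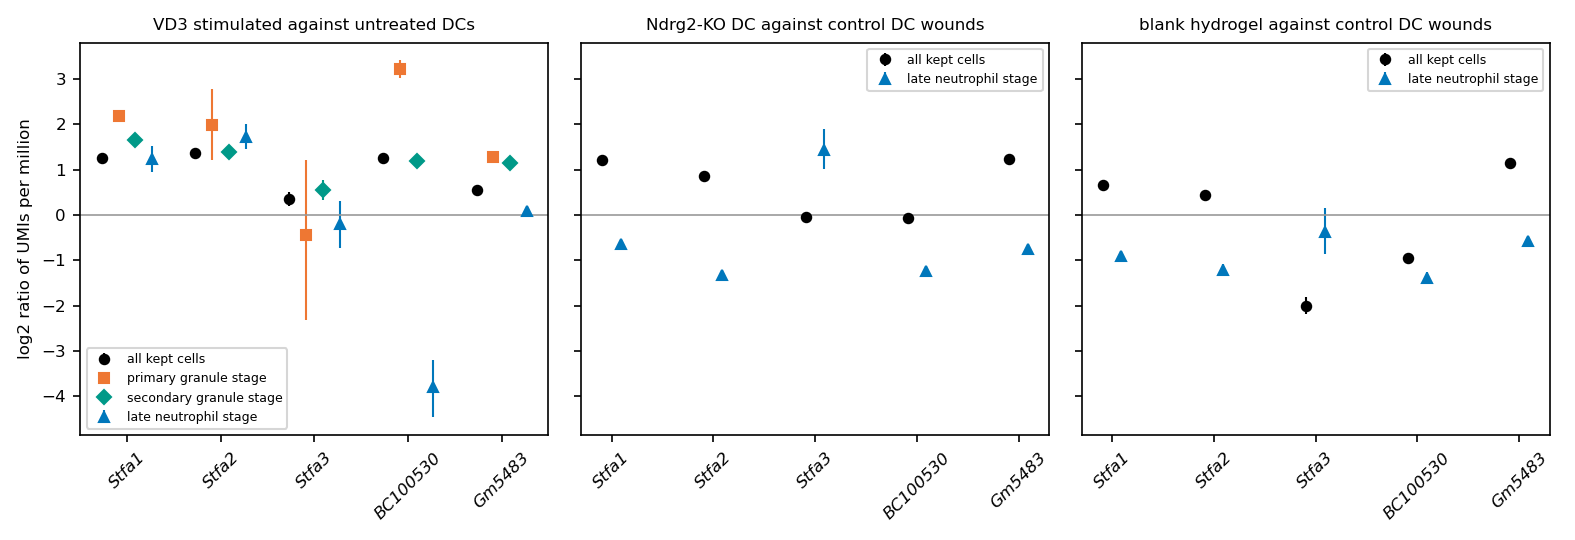
log2 ratio of CPM for each gene in 3 comparisons, over all kept cells (black) and within the cells of a stage list (colours), with 95% intervals of counting error and a line at 0. In both wound panels the ratios of Stfa1, Stfa2 and Gm5483 lie above 0 over all cells and below 0 in late-stage cells, and with VD3 BC100530 stands at -3.80 in late-stage cells.

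At 1000 UMIs per cell 14.5% of 1923 cells of control DC, 32.2% of 5586 of Ndrg2-KO DC and 26.4% of 3338 of blank hydrogel wounds had a stefin UMI, against 19.5%, 42.2% and 35.5% without the reduction, after 25, 95 and 65 shallower cells were left out. In fibroblast-like cells, which should lack these genes, the shares were 0.638%, 1.51% and 0.619% at median depths of 30017.5, 26709 and 28010 UMIs. Macrophage-like cells had 1.64%, 5.44% and 3.13%, at median depths of 13409.5, 12225.5 and 12414. Stfa2l1 and Gm5483 kept a similar proportion in many wound classes. Per 100 Gm5483 UMIs there were 58.0 Stfa2l1 UMIs in neutrophil-like, 58.0 in macrophage-like and 55.5 in mature DC-like cells of Ndrg2-KO DC wounds. Whether these UMIs were made in the macrophages and DCs was not tested. For Stfa3 the proportion differed, with 6.60 UMIs per 100 of Gm5483 in macrophage-like and 1.24 in neutrophil-like cells of the same wounds.

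Stfa3 and BC100530 had a second site of expression in the wounds. In the keratinocyte-like cluster, led by Krt14, Krt71 and Krt25, cells with at least 3 keratinocyte markers numbered 9 in control DC, 9 in Ndrg2-KO DC and 21 in blank hydrogel wounds, and 0 of them had 3 or more T-cell markers. Of the cluster's other cells 8 of 14, 16 of 34 and 8 of 44 did, so the cluster was mixed. In the marker-bearing cells BC100530 had 4819, 5153 and 189 CPM, Stfa3 had 3108, 1133 and 81.5 CPM, and Stfa1 had 740, 971 and 44.2 CPM. Stfa2 had 1, 3 and 0 UMIs and Gm5483 had 62, 1 and 136 UMIs there, so the proportions differed from those of neutrophils. In control DC wounds the whole cluster, 23 cells, held 90.3% of all Stfa3 and 61.9% of all BC100530 UMIs of the library. These values rest on 5 cells with BC100530 in each library, and 1 cell held 754 of 1439 UMIs in control DC wounds, 621 of 1183 in Ndrg2-KO DC wounds and 69 of 81 in blank hydrogel wounds, where 1 cell also held 27 of 35 Stfa3 UMIs. Stfa3 was also found in cluster 3 of the wounds, led by Mmp12, Mmp13 and Arg1 and left unnamed. It had 79.6 CPM (73.6 to 86.0) in 685 cells of Ndrg2-KO DC wounds and 27.1 CPM in 379 cells of blank hydrogel wounds, but 5.54 CPM (2.95 to 9.48), 13 UMIs, in 157 cells of control DC wounds. In the first 2 there were 33.4 and 31.5 Stfa3 UMIs per 100 of Gm5483, against 1.24 and 0.290 in the neutrophil-like cells.

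Across the 26 library and cluster units of the cultures, the genes whose level was most like the summed stefin level were S100a8 (Pearson r = 0.94), S100a9 (0.91), Chil3 (0.90), Trem3 (0.87), Mrpl55 (0.87), AI839979 (0.86), Hnmt (0.86) and Wfdc21 (0.86), out of 12101 genes. Across 29 units of the wounds they were G0s2 (0.97), Hcar2 (0.97), S100a9 (0.96), S100a8 (0.96), Cxcr2 (0.96), Slfn4 (0.96), F630028O10Rik (0.96) and Chil1 (0.95), out of 11614. Units of 1 library share its depth and its free RNA, so these are descriptions. S100a8 and S100a9 were on both lists. Cstb had r of 0.05 in the cultures and 0.60 in the wounds.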

How the data were processed

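The authors aligned droplet 3′ reads to mm10 with Cell Ranger (3.1.0 for the cultures and 6.0.0 for the wounds, per the file headers), while the labels name mm9 as well as Seurat 3.1.1. The deposited values are whole UMI counts per gene and cell. The members and lists were chosen with earlier results of these data known. A barcode entered as a cell if it had 300 or more genes, fewer than 100000 UMIs and less than 10% of UMIs from mitochondrial genes, and doublets were not removed in the values reported. Counts were summed per library, stage or cluster and given as CPM with exact Poisson intervals, ratios with exact conditional binomial intervals and shares with Clopper-Pearson intervals, at 95%. Clusters came from Seurat 5.3.0 in R 4.3.3 (2000 variable genes without stefin A genes) and were named from marker lists. Genes with 100 or more UMIs in either sum entered the 2-fold counts. Named genes were the 5 members, the listed genes and the 8 of likest pattern. Feature identifiers were matched to GENCODE for loci (30934 of 31053). The ratio and 2-fold steps were tested on simulated data. Alternatives were other cell filters, doublet removal (Scrublet in scanpy 1.11.5), scalings, stage rules and clusterings.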

Additional observations from a re-analysis of the deposited data

Results flagged for a closer look

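Some values had opposite directions in different cells of the same comparison. Each condition was 1 library, so none of these differences was tested. The log2 difference of BC100530 between VD3 stimulated and untreated DCs was 3.21 in primary-stage and 1.18 in secondary-stage cells but -3.80 in late-stage cells. Between the neutrophil-like cluster and cluster 8 of the cultures, all 5 genes went opposite ways with VD3. Stfa1 stood at 3.03 in the neutrophil-like cluster and -2.06 in cluster 8, Stfa2 at 1.67 and -1.74, Stfa3 at 1.10 and -3.63, BC100530 at 1.31 and -2.11, and Gm5483 at 0.82 and -1.32. Cluster 8 held 98 untreated and 1080 VD3 stimulated cells, and S100a8 also stood lower in the latter. Whether like cells were compared there was not tested. In Ndrg2-KO DC against control DC wounds Stfa3 stood at 1.44 in late-stage cells and -2.16 in the keratinocyte-like cluster, where 1 cell of control DC wounds held 404 of its 928 UMIs.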

How the results depend on the processing

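All values are log2 differences of the 5 genes summed unless named otherwise. The cause of each shift was not tested. Leaving out top cells or Gm5483, summing all stefin A genes and limiting late-stage cells to neutrophil-like clusters were chosen after seeing the data. No paired analysis was possible because each condition was 1 library with no replicate. Of 111 alternatives of the headline values 29 were counted as unchanged. Of 175 alternative values of single genes 102 moved by less than their counting error and 73 by more. The sign changed in 8 of them, 4 of Stfa3 and 4 of BC100530, all in Ndrg2-KO DC against control DC wounds, where the interval of the reported value held 0.
For VD3 stimulated against untreated DCs (0.80) the value was 0.76 with all barcodes, 1.35 under 5% mitochondrial UMIs, 0.88 without the 6% of cells with the highest doublet scores, 0.88 with median-ratio scaling, 0.95 as a mean over cells, 0.84 without the top cell of each library and 1.23 without Gm5483. For Ndrg2-KO against untreated DCs (-2.80) it was -2.91 with all barcodes, -2.17 under 5% mitochondrial UMIs, -2.73 with median-ratio scaling, -2.48 as a mean over cells, -3.32 without Gm5483 and -2.88 with all stefin A genes. Against VD3 stimulated DCs (-3.60) it was -3.67 with all barcodes, -3.52 under 5% mitochondrial UMIs, -3.67 without high doublet scores, -3.44 as a mean over cells, -4.55 without Gm5483 and -3.67 with all stefin A genes.
For Ndrg2-KO DC against control DC wounds (1.06) it was 1.02 with a minimum of 300 UMIs in place of genes, 0.94 without high doublet scores, 1.21 with median-ratio scaling, 0.50 as a mean over cells, 1.14 without the top cells, 0.57 without Gm5483 and 1.18 with all stefin A genes. For blank hydrogel wounds (0.86) the same 7 alternatives gave 0.90, 0.78, 0.89, 0.46, 0.94, -0.15 and 0.99, so that leaving out Gm5483 turned the direction.
By stage, a minimum of 2 list genes gave 1.72 at the primary (1.87) and 1.53 at the secondary stage (1.23) with VD3, and turned the late-stage wound values (-0.78 for Ndrg2-KO DC and -0.65 for blank hydrogel wounds) to 0.079 and 0.0094. Calls at 1000 UMIs gave 0.89, 0.68 and 0.91 at the primary, secondary and late stage (0.13) with VD3 and -0.91 and -0.49 in the wounds. Without the top cell of each stage the values were 1.71 and 1.35 at the primary and secondary stage and -0.74 and -0.62 in the wounds, and without high doublet scores 1.12 at the secondary stage and -0.75 and -0.69 in the wounds. In neutrophil-like clusters the blank hydrogel value was -0.58.
The share of cells with a stefin UMI at 1000 (cultures) or 500 UMIs (wounds) was 8.24%, 8.22% and 2.60% in the 3 cultures and 27.8% and 23.4% in Ndrg2-KO DC and blank hydrogel wounds, and at full depth 25.7%, 19.2%, 13.5%, 19.5%, 42.2% and 35.5% in the 6 libraries. The share of stefin UMIs in neutrophil-like clusters was 21.9% in untreated and 28.8% in VD3 stimulated DCs at resolution 1.0. With 30 components it was 24.7%, 30.9% and 3.42% in the cultures and 82.7%, 85.4% and 93.1% in the wounds, and with stefin A genes among the variable genes 23.8%, 30.9% and 9.46% in the cultures. The top 5% of cells held 85.3%, 93.9% and 85.5% of stefin UMIs in the cultures and 79.4%, 49.9% and 55.1% in the wounds. With 50-base windows 73.7% of Stfa1, 84.1% of Stfa2, 71.1% of BC100530 and 80.5% of Gm5483 windows were unique.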
